A study of Mus musculus with 4 samples.

Results

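The genes described here are 6 members of the Ly6 family, which encode small cysteine-rich proteins held at the cell surface by a lipid anchor: Ly6a, Ly6c1, Ly6c2, Ly6e, Ly6i and Ly6d. They were taken by symbol from the 30905 genes of the matrix, with earlier results of these data known, and all 6 were found. The matrix holds transcript counts of single cells from 4 mouse hearts, collected at day 5 after heterotopic transplantation into the abdomen of male C57BL/6J recipients aged 8 to 10 weeks. Of these hearts, 2 were allogeneic grafts from Balb/C donors and 2 were syngeneic grafts from C57BL/6J donors, with no drug or engineered allele named for any group. The cells of all 4 grafts were merged in 1 table and carry a barcode suffix from 1 to 4, called library 1 to library 4 here. Which suffix belongs to which graft is given nowhere in the labels, the files or the study's text. Allogeneic and syngeneic grafts were therefore not compared, the cells count as 1 pooled sample, and no p-value is given. A class can hold donor and recipient cells, which cannot be told apart here.

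Ly6 proteins share a fold with snake toxins and the urokinase receptor, and several are read out daily in mouse immunology as antigens. Ly6a is Sca-1, a marker of haematopoietic stem cells that is also carried by endothelium, fibroblast progenitors and activated lymphocytes. Ly6c1 and Ly6c2 together encode the Ly6C antigen, which separates classical from nonclassical monocytes and is also found on memory CD8+ T cells and endothelium, and Ly6d marks lymphoid progenitors committed to the B lineage. Ly6a and Ly6e are known interferon-response genes. Balb/C and C57BL/6 mice carry different haplotypes of this locus, and fewer resting lymphocytes of Balb/C mice bear Sca-1, a strain difference that could not be examined because no suffix is tied to a strain.

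The members lie on chromosome 15 of GRCm38. In the GENCODE annotation, 5 of them sit within 157 kb: Ly6e at chr15:74955051-74959905 on the plus strand, and Ly6i at chr15:74979534-74983430, Ly6a at chr15:74994877-74998031, Ly6c1 at chr15:75044018-75048830 and Ly6c2 at chr15:75108158-75111970 on the minus strand. Ly6d, at chr15:74762056-74763620 on the minus strand, lies 191 kb before Ly6e. Each has 3 coding exons, and the coding sequences run from 384 bases in Ly6d to 411 in Ly6e.

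Ly6c1 and Ly6c2 are near-identical copies, and their coding sequences are shown because the results turn on telling their reads apart. The coding bases 1 to 300 of each, on the minus strand of GRCm38, are given with the 7 bases that differ in capitals.
Ly6c1: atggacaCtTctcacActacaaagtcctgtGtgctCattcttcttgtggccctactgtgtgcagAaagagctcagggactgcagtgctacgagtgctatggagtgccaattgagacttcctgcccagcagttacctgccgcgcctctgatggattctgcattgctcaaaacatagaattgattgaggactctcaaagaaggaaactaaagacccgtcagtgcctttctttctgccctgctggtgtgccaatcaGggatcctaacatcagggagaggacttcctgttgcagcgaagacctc
Ly6c2: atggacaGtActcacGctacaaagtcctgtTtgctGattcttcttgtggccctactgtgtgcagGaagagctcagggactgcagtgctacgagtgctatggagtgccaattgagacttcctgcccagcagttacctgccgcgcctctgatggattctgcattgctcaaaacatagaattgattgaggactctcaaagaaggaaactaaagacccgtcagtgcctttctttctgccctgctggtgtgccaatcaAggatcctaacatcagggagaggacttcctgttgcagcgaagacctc
Over all 396 coding bases the pair differed at 9 positions, an identity of 97.7%, and 6 of the differences fall in the first 65 bases. Ly6a and Ly6i were 86.4% identical, Ly6a was 82.0% identical to Ly6c1 and 81.7% to Ly6c2, and pairs with Ly6e or Ly6d reached only 49.3 to 53.5%. The 3′ libraries read the other end of the transcript. In the last 400 bases of the Ly6c1 and Ly6c2 transcripts, an alignment held 7 mismatches and 14 gap columns, and 10.97% of the 310 windows of 91 bases occur unchanged in the other transcript, against 0% for every other pair of members. Reads that lie within such windows fit both genes, so the counts of Ly6c1 and Ly6c2 can be less certain than those of the other members. The study states a run with reads longer than 91 bases, and longer windows were not compared, so the share of such reads is not known. The reference is a C57BL/6 genome, and reads of Balb/C alleles may map to it less well, which was not tested.

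The windows upstream of the pair were less alike than the coding sequence. The 250 bases before the start of each gene are shown because the cell types that held Ly6c1 and Ly6c2 differed. They are from RefSeq on GRCm38.p6, at chr15:75048838-75049087 for Ly6c1 and chr15:75111972-75112221 for Ly6c2, both on the minus strand, with runs of at least 15 bases found in both windows in capitals.
Ly6c1: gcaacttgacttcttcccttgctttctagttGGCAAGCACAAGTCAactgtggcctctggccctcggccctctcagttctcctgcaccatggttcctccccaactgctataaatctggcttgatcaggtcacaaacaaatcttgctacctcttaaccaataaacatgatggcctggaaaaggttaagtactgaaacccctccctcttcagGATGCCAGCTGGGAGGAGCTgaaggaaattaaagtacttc
Ly6c2: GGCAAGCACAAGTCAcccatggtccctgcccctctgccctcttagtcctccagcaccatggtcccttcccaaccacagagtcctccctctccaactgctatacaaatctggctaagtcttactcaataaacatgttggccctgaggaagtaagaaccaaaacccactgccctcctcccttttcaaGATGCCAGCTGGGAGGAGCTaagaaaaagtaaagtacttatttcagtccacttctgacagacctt
These runs cover 35 of 250 bases in each window, and a global alignment of 284 columns was 57.7% identical, with gap columns counted as differences. The first shared run opens the Ly6c2 window but lies further inside the Ly6c1 window. The windows are thus out of register, and the identity also reflects where they start. Neither window held the letters AANNGAAA, a core pattern of interferon regulatory factors, on either strand. Of the 32851 promoter windows in the same RefSeq table, 21.3% held it. Windows for the other 4 members were not used here.

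Of 53824 deposited cells, 42395 were analysed. The libraries held 96020294 to 166079145 UMIs, where a UMI is a molecular tag that counts an mRNA molecule 1 time, and the median UMIs per cell were 4808, 4759, 6319 and 9784 in libraries 1 to 4. Clustering without any Ly6 family gene gave 27 clusters, of which 24 were named by markers in 12 classes and 3 with 4025 cells stayed unnamed. The largest classes were 12710 endothelial-like, 8597 macrophage-like, 5579 fibroblast-like and 3039 granulocyte-like cells, and the label of heart tissue was met by 1237 cardiomyocyte-like cells in 2 clusters that each held 8 of 8 markers. Libraries stood apart: 10 clusters drew over 90% of their cells from 1 library. Endothelial-like cells came mostly from cluster 1 in libraries 1 and 3, cluster 2 in library 2 and cluster 21 in library 4. Fibroblast-like cells came mostly from clusters 4 and 7 in libraries 1 and 3, cluster 18 in library 2 and cluster 22 in library 4, and macrophage-like cells from cluster 11 in libraries 1 and 3, cluster 14 in library 2 and clusters 3 and 6 in library 4. A difference between libraries within a class is therefore also a difference between clusters. Across libraries, 308 barcodes occurred in 2 libraries and none in 3.

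Levels are given as CPM, the UMIs of a gene per 1000000 non-mitochondrial UMIs of the cells, and intervals are exact Poisson 95% intervals that cover counting error only. Over all analysed cells, Ly6a stood at 2138 CPM with a UMI in 77.1% of cells, Ly6e at 1141 CPM in 81.2%, Ly6c1 at 786 CPM in 55.7%, Ly6i at 337 CPM in 19.3%, Ly6c2 at 310 CPM in 22.2% and Ly6d at 6.52 CPM in 1.07%. The members differed in how widely they were spread over classes. The leading class was at least 4-fold above the mean of the other classes for 4 of 6 members, against 29.7% of 15374 genes tested. The study had used Ly6d to name B cells and Ly6c2 to name infiltrating macrophages in these data. The count for such known markers therefore largely follows from the choice of members. Ly6d led by 106-fold, Ly6i by 37.0-fold, Ly6c1 by 8.19-fold and Ly6c2 by 8.12-fold, while Ly6e led by 3.04-fold and Ly6a by 2.95-fold. These values pool the libraries. Macrophage-like cells were the pooled leader for Ly6i, Ly6c2 and Ly6a, with most of those cells from library 4, and they led Ly6a in none of the 4 libraries taken alone.

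**Figure D1:**
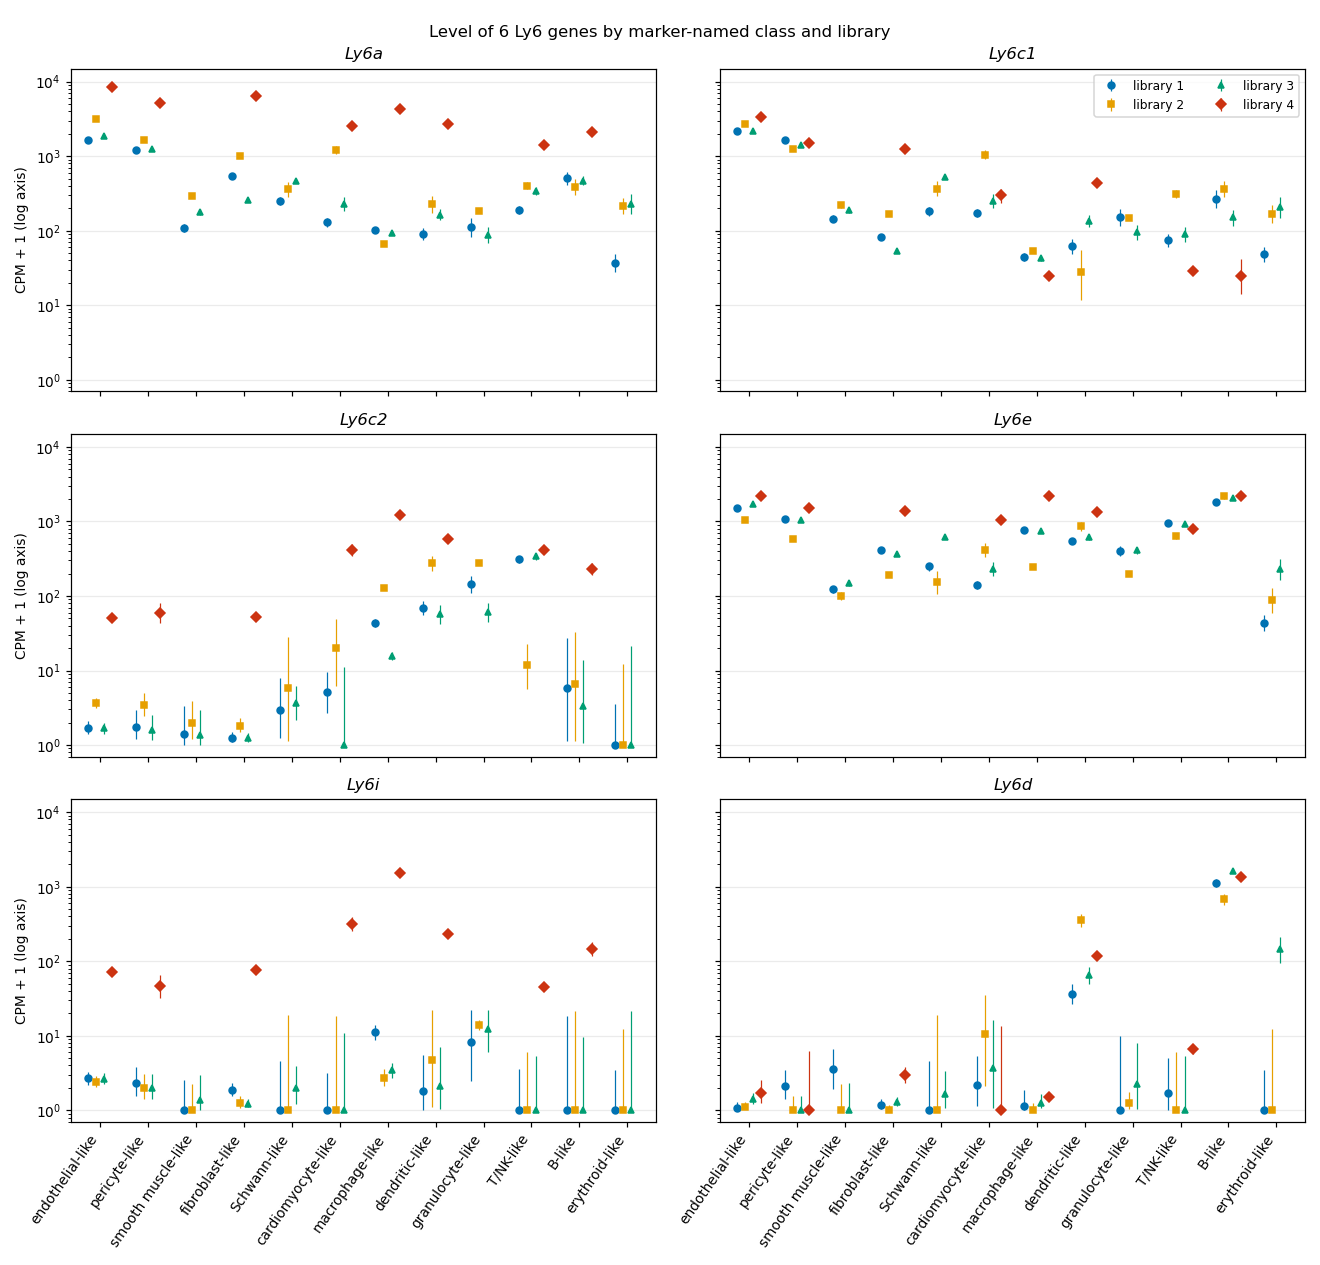
CPM plus 1 (log axis) of each of the 6 members in the 12 classes, with 1 point per library of at least 20 cells and bars for the exact Poisson 95% interval. Ly6a and Ly6c1 were highest in endothelial-like cells in all 4 libraries and Ly6d in B-like cells, and the macrophage-like points of Ly6a, Ly6c2 and Ly6i spread from below 150 CPM in libraries 1 to 3 to over 1200 CPM in library 4.

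Ly6a was highest in endothelial-like cells in each of the 4 libraries, at 1645, 3195, 1865 and 8416 CPM in libraries 1 to 4. Pericyte-like cells came next in libraries 1 to 3, with 1195, 1656, 1253 and 5205 CPM in libraries 1 to 4. Library 4 was the highest in both classes, but its pericyte-like value rests on 42 cells. After all cells were thinned to 1000 UMIs to set depth equal, a Ly6a UMI was found in 72.7, 88.0, 78.0 and 98.0% of endothelial-like cells.

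The other classes split by library. In macrophage-like cells Ly6a measured 99.96, 65.5 and 91.9 CPM in libraries 1 to 3 and 4242 CPM in library 4, and the share of thinned cells with a UMI was 6.39, 9.27, 6.07 and 95.8%. In fibroblast-like cells Ly6a measured 534, 998, 260 and 6510 CPM, and in T/NK-like cells 186, 403, 341 and 1431 CPM. In B-like cells it measured 502, 390, 467 and 2098 CPM. In each of these classes library 4 lay above the range of the other libraries. When all cells are pooled, macrophage-like cells lead Ly6a with 3021 CPM (interval 3012 to 3031) over endothelial-like cells with 2797 (2787 to 2807), with 5905 of the 8597 macrophage-like cells from library 4; without library 4 the endothelial-like level was 2305 CPM.

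In the remaining classes Ly6a varied by library too. Dendritic-like cells measured 89.5, 228, 164 and 2727 CPM. Cardiomyocyte-like cells measured 129, 1224, 227 and 2523 CPM, the third-highest class of library 2. Most of those of libraries 2 and 4 were shallow cells of cluster 17, with medians of 813.5 and 826 UMIs per cell. Those of library 2 also held 1049 CPM of Ly6c1, a gene led by endothelial-like cells. Granulocyte-like cells measured 111, 181 and 87.6 CPM in libraries 1 to 3, the libraries with at least 20 cells of that name. Cells with granulocyte markers in library 4 were mostly in unnamed cluster 19, with 771 cells of that library and 1180 CPM of Ly6a in them. Schwann-like cells measured 248, 358 and 465 CPM, smooth muscle-like cells 107, 292 and 179 CPM and erythroid-like cells 36.3, 214 and 229 CPM. In the pooled order of all 12 classes, the library ranges of every pair of neighbours overlapped for Ly6a.

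Ly6c1 spanned the least of the 5 members tested in endothelial-like cells, with 2191, 2728, 2182 and 3353 CPM in libraries 1 to 4 and 2465 CPM pooled (2455 to 2475). Pericyte-like cells followed with 1652, 1259, 1409 and 1481 CPM, and the ranges of these classes did not overlap with each other or with that of Schwann-like cells, the next class, at 437 CPM pooled. After thinning, 79.8, 82.9, 82.1 and 88.7% of endothelial-like cells had a Ly6c1 UMI. In macrophage-like cells the shares were 4.79, 8.04, 3.57 and 2.51% and the levels 43.5, 52.4, 41.8 and 23.5 CPM, with library 4 the lowest. Fibroblast-like cells held 80.6, 168 and 52.9 CPM of Ly6c1 in libraries 1 to 3 and 1247 CPM in library 4.

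Between libraries, 4 of the 5 members tested in endothelial-like cells differed at least 2-fold between the highest and the lowest library, with 1 CPM added, where 35.8% of 12401 genes did. Ly6a spanned 5.11-fold, Ly6e 2.10-fold, Ly6i 29.5-fold and Ly6c2 30.3-fold. Ly6c1 spanned 1.54-fold, a span that 61.7% of the genes exceeded, and Ly6d had too few UMIs to be tested. In pericyte-like cells 2 of 3 members tested passed, Ly6a and Ly6e, where 40.9% of genes did. For both, the highest library was library 4, with 42 cells of this class.

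Ly6c2 was highest in leukocytes. Macrophage-like cells measured 42.3, 125, 14.7 and 1236 CPM in libraries 1 to 4, T/NK-like cells 308, 10.8, 339 and 410 CPM, and granulocyte-like cells 143, 276 and 60.1 CPM in libraries 1 to 3. Dendritic-like cells measured 68.7, 274, 56.1 and 587 CPM. T/NK-like cells led in libraries 1 and 3 and macrophage-like cells in library 4, while in library 2 the dendritic-like interval (214 to 345) held the granulocyte-like level. Pooled, macrophage-like cells held 892 CPM of Ly6c2 (887 to 897), and 63.9 CPM without library 4. In endothelial-like cells Ly6c2 was at 0.688, 2.66 and 0.668 CPM in libraries 1 to 3 and at 49.5 CPM in library 4, and in fibroblast-like cells at 0.248, 0.820, 0.229 and 51.0 CPM. After thinning, 52.1% of macrophage-like cells of library 4 had a Ly6c2 UMI, beside 5.35% of endothelial-like and 8.95% of fibroblast-like cells of that library. The median depths of these 3 classes over all libraries were 14221, 5406 and 15585 UMIs per cell before thinning.

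Ly6i, a close relative of Ly6a in sequence, was almost wholly a transcript of library 4. Macrophage-like cells held 10.2, 1.74 and 2.47 CPM of Ly6i in libraries 1 to 3 and 1514 CPM in library 4, and 67.8% of thinned macrophage-like cells of library 4 had a UMI. Without library 4 the pooled level fell from 1071 CPM to 3.53 CPM. In B-like and T/NK-like cells no Ly6i UMI was counted in libraries 1 to 3, which allows up to 6.93 to 17.0 and 2.14 to 4.07 CPM by the limit of 3 counts, while library 4 held 146 and 43.9 CPM. Cluster 19, left unnamed although it held 7 of 8 granulocyte markers, had 771 of its 775 cells in library 4 and measured 1249 CPM of Ly6i, 524 CPM of Ly6c2, 1137 CPM of Ly6a and 1624 CPM of Ly6e. Granulocyte-like cells of libraries 1 to 3 held 7.26, 12.8 and 11.3 CPM of Ly6i.

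All 5 members tested in macrophage-like cells passed 2-fold between libraries, where 41.1% of genes did. Ly6a spanned 63.8-fold, Ly6c2 79.0-fold, Ly6i 554-fold and Ly6e 8.98-fold, with library 4 the highest in each, and Ly6c1 spanned 2.18-fold with library 4 the lowest. All 5 tested in fibroblast-like cells passed as well, where 55.1% of genes did, and library 4 was the highest for each, by 25.0-fold for Ly6a and 23.1-fold for Ly6c1. In granulocyte-like cells, compared over 3 libraries, 3 of 5 members passed where 52.8% of genes did, which is close to the background. In T/NK-like cells 5 of 6 passed where 53.1% of genes did. In B-like cells 4 of 5 passed where 23.9% of genes did. The member that did not pass in either lymphocyte class was Ly6e, with 1.46-fold in T/NK-like and 1.22-fold in B-like cells. Genes needed 100 UMIs summed over libraries, so some members were tested only through library 4. That library held 134 of 137 Ly6c2 UMIs in B-like and 748 of 781 in fibroblast-like cells, and all Ly6i UMIs of T/NK-like cells. For such members the 2-fold call largely follows from the filter. The 127 Ly6d UMIs of T/NK-like cells were in 16 cells. Ly6c1 in both lymphocyte classes is also limited by endothelial RNA, as given below. The part of strain, graft, batch and cluster makeup in the differences between libraries cannot be told apart.

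Ly6e, which encodes a widely expressed interferon-induced protein, was highest in B-like cells in all 4 libraries, at 1831, 2188, 2072 and 2229 CPM, although in library 4 its interval (2109 to 2353) held the endothelial-like level. Endothelial-like cells measured 1517, 1054, 1702 and 2218 CPM. Macrophage-like cells measured 770, 243, 753 and 2188 CPM, and fibroblast-like cells 407, 191, 360 and 1374 CPM. In the last 3 classes library 2 was the lowest and library 4 the highest. T/NK-like cells held 947, 647, 921 and 804 CPM, pericyte-like cells 1077, 582, 1039 and 1533 CPM and granulocyte-like cells 406, 194 and 411 CPM, with library 2 again the lowest. The B-like range did not reach below 1831 CPM, but it overlapped with the range of the macrophage-like cells, the next class in the pooled order.

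Ly6d was found in few cells. B-like cells held 1128, 678, 1633 and 1368 CPM, and 89.8% of the 324 B-like cells had a Ly6d UMI. Dendritic-like cells held 35.6, 354, 63.8 and 119 CPM, but these UMIs were in 31 of 1254 cells, or 2.47%. All 26 Ly6d UMIs of erythroid-like cells were in 1 cell of library 3, and T/NK-like cells held 5.00 CPM pooled. The other 8 classes stayed below 2 CPM pooled.

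The balance of Ly6c1 and Ly6c2 differed between classes and libraries. Of the UMIs of both genes, Ly6c1 took 99.97, 99.90, 99.97 and 98.55% in endothelial-like cells of libraries 1 to 4 and 99.7, 99.5, 99.6 and 96.1% in fibroblast-like cells. In macrophage-like cells it took 50.7, 29.5, 74.0 and 1.87%, and in T/NK-like cells 19.2, 96.6, 20.7 and 6.28%. B-like cells stood at 98.2, 98.5 and 98.5% in libraries 1 to 3, where Ly6c2 was at 2.31 to 5.65 CPM, and at 9.46% in library 4. Endothelial-like cells of libraries 1 and 3 had only 16 and 24 UMIs assigned to Ly6c2 beside 50966 and 78434 assigned to Ly6c1.

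**Figure D2:**
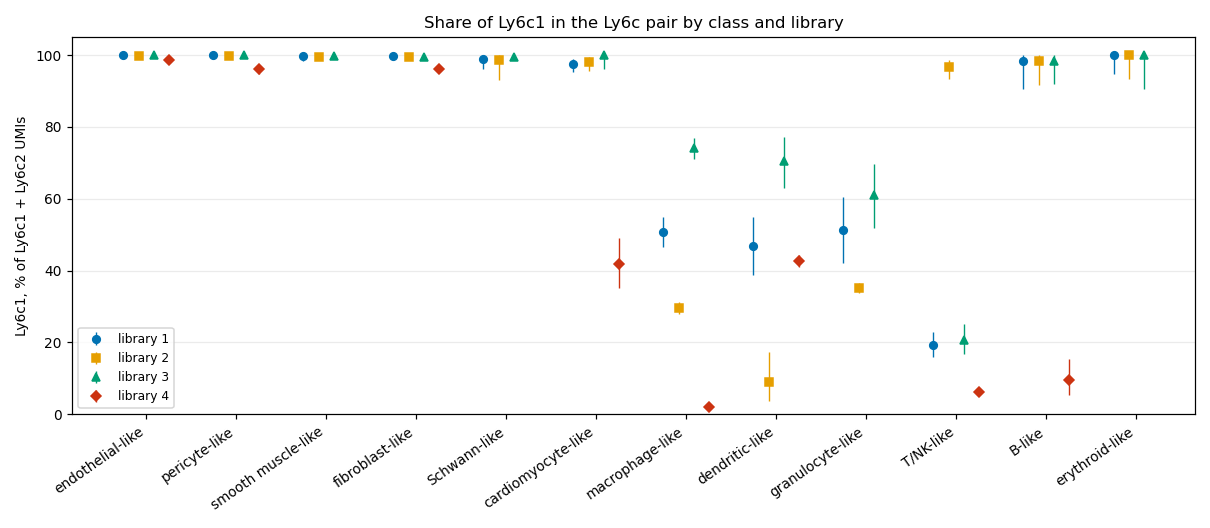
Ly6c1 UMIs as a percentage of Ly6c1 plus Ly6c2 UMIs in each class, with 1 point per library and bars for the exact Clopper-Pearson 95% interval. Endothelial-like and fibroblast-like points sit above 96%, while macrophage-like points run from 74.0% in library 3 to 1.87% in library 4.

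Free RNA from burst cells enters droplets, so each member's level was set beside a carried level. This is the level a class would hold if the gene had come with the RNA of 1 chosen source class. It was read from 3 markers of that class in the same library. For Ly6c1 the source was the endothelial-like class with Cdh5, Cldn5 and Egfl7. Pericyte-like Ly6c1 was 1.29, 0.893, 1.16 and 1.08 times the carried level in libraries 1 to 4, T/NK-like Ly6c1 0.88, 0.99, 0.76 and 0.98 times, and macrophage-like Ly6c1 0.72, 0.85, 0.77 and 1.59 times. B-like Ly6c1 was 1.22, 1.45 and 1.02 times the carried level in libraries 1 to 3. Ly6c1 in these classes was thus near the level that comes with the endothelial markers measured in them, and a level of their own cannot be told apart from it. Fibroblast-like Ly6c1 was 1.79, 3.45 and 1.31 times the carried level in libraries 1 to 3 and 22.3 times in library 4.

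Ly6a stood above the carried endothelial level in more classes. Fibroblast-like cells held 15.8, 17.6, 7.53 and 46.3 times the carried level, and macrophage-like cells 2.20, 0.91, 1.97 and 114 times. T/NK-like cells held 2.99, 1.09, 3.42 and 20.4 times and B-like cells 3.04, 1.34, 3.70 and 69.7 times, while pericyte-like cells held 1.24, 1.00, 1.21 and 1.51 times, so a level of their own cannot be told apart from the carried one. Ly6e, read against the same markers, stood at 12.02 to 281 times the carried endothelial level in B-like and 10.2 to 223 times in macrophage-like cells over the libraries. In fibroblast-like cells it stood at 10.2 to 37.1 times. Macrophage-like cells held more Ly6e UMIs than endothelial-like cells when pooled, at 217406 against 151634, mostly through library 4. There, clusters 3 and 6 held 115007 and 80651, against 18289 in endothelial-like cluster 21. In libraries 1 and 3, endothelial-like cluster 1 held 33184 and 54141, against 3434 and 10835 in macrophage-like cluster 11. In library 2, endothelial-like cluster 2 held 36634, against 3123 in macrophage-like cluster 14. RNA carried from macrophage-like cells was not read for Ly6e. These ratios, above all those of library 4, thus do not separate carried Ly6e from a class's own. Ly6a in macrophage-like, T/NK-like and B-like cells of library 2 was thus at or near the carried endothelial level, and in library 4 far above it. In library 4, however, macrophage-like clusters 3 and 6 held 208867 and 170012 Ly6a UMIs, against 69412 in endothelial-like cluster 21. RNA carried from macrophage-like cells was not read for Ly6a. The ratios of library 4 therefore cannot show how much Ly6a the T/NK-like and B-like cells held of their own.

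For Ly6c2 and Ly6i the source was the macrophage-like class with Ms4a6c, Fcgr1 and Ccr2. In library 4, Ly6c2 was 0.89 times the carried level in endothelial-like, 0.77 times in fibroblast-like, 0.96 times in pericyte-like and 0.92 times in cardiomyocyte-like cells, and Ly6i was 1.04, 0.92 and 0.61 times in the first 3 of these and 0.90 times in B-like cells. Ly6c2 and Ly6i in endothelial-like and fibroblast-like cells of library 4 were thus near the level that comes with the macrophage markers measured in the same cells. T/NK-like Ly6c2 was 21.8, 2.45, 85.2 and 4.59 times the carried level in libraries 1 to 4, and B-like Ly6c2 1.74 times in library 4. Ly6d in dendritic-like cells was 15.5, 83.7, 16.7 and 24.7 times the level that B-like RNA, read from Cd79a, Cd79b and Ms4a1, would bring, a class value that rests on the 31 cells with a Ly6d UMI.

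The interferon list, 29 genes such as Gbp2, Isg15 and Cxcl9 given as a share of all UMIs, differed between libraries in the same classes. It took 1.53, 0.501, 1.02 and 5.09% of UMIs in endothelial-like cells of libraries 1 to 4, 0.884, 0.272, 0.762 and 2.92% in macrophage-like cells, 0.566, 0.118, 0.311 and 3.26% in fibroblast-like cells and 1.12, 0.662, 0.988 and 0.980% in T/NK-like cells. Over 44 units of 1 class in 1 library, Pearson correlations of the log2 level, with 10 CPM added, and the log2 share of the list were 0.848 for Ly6e, 0.648 for Ly6i, 0.643 for Ly6a, 0.532 for Ly6c2, 0.236 for Ly6c1 and 0.105 for Ly6d. Without the 8 units of library 4 they were 0.837 for Ly6e, 0.258 for Ly6a, 0.215 for Ly6i and 0.311 for Ly6c2, so of these 4 only Ly6e stayed near its value without that library. These are descriptions, since units of 1 library share its preparation and depth and units of 1 class share its cells.

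**Figure D3:**
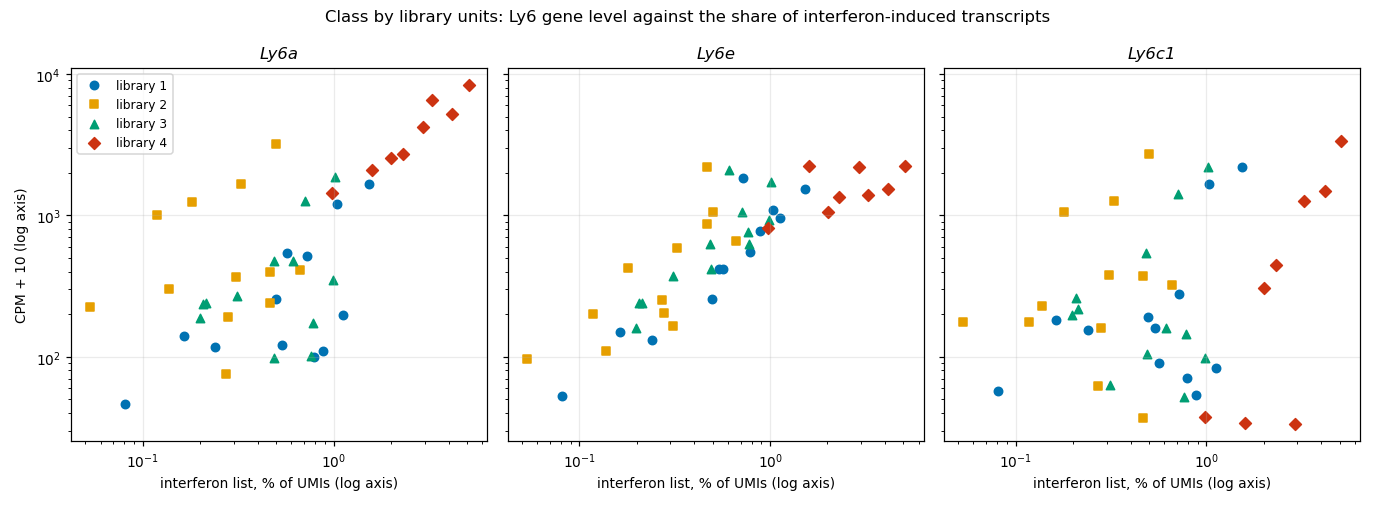
CPM plus 10 (log axis) of Ly6a, Ly6e and Ly6c1 against the interferon list as a percentage of UMIs (log axis), with 1 point for each of 44 class-by-library units, coloured by library. Ly6e followed the list with and without the units of library 4 (r = 0.848 and 0.837), Ly6a mainly through the units of library 4 (r = 0.643, and 0.258 without them), and Ly6c1 did not (r = 0.236).

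Within classes the order of libraries was compared too. Of the 8 classes found in all 4 libraries, the library with the highest interferon share was also the highest for Ly6e in 8, for Ly6a, Ly6c2 and Ly6i in 7 each and for Ly6c1 and Ly6d in 3 each. Library 4 had the highest share in each of these classes but T/NK-like, so the counts mostly restate where library 4 was high. Several of the Ly6c2 and Ly6i levels in library 4 were near the carried macrophage level. The same count over all genes was not made. The library with the lowest share was also the lowest for Ly6e in 6 and for Ly6a and Ly6c1 in 3 each. The other members had classes with several libraries at 0 or near it, so their lowest library is not given.

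Endothelial-like cells were clustered again without Ly6 family, interferon and MHC class II genes, which gave 11 subclusters. Subclusters 1, 4 and 7 came almost wholly from library 2, with Ly6a at 3163, 2383 and 4081 CPM, Ly6c1 at 2676, 2146 and 3867 CPM and Ly6e at 1038, 828 and 1420 CPM. Subcluster 4 was shallow, with a median of 947.5 UMIs per cell. Subcluster 7 was led by Timp4 and Lpl, and its Ly6c1 could not be ranked against the 3913 CPM of subcluster 6 in the same library (3768 to 4062). Subcluster 8, with 617 of 620 cells from library 4 and led by Ubd, Serpina3g and Cxcl9, held 8718 CPM of Ly6a, 3517 of Ly6c1 and 2289 of Ly6e, with the interferon list at 5.18% of UMIs.

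The lowest levels of Ly6a and Ly6c1 were in lymphatic-like cells and, in libraries 1 and 3, in venous or endocardial-like cells. Subcluster 10, named lymphatic-like from 5 of 5 markers, held 167 CPM of Ly6a and 145 CPM of Ly6c1 in 207 cells, with Ly6e at 852 CPM, and its Ly6a was 102, 271 and 81.2 CPM in libraries 1 to 3. Subcluster 9, venous or endocardial-like from 5 of 5 markers, held 98.5, 2502 and 307 CPM of Ly6a and 89.98, 1431 and 190 CPM of Ly6c1 in libraries 1 to 3, with library 2 the highest for both. Subcluster 6, arterial-like from 5 of 6 markers, held 2419, 5326 and 2591 CPM of Ly6a in these libraries and 3017 CPM of Ly6c1 pooled. The remaining subclusters 2, 3, 5 and 11 held 1287 to 2068 CPM of Ly6a and 1452 to 2556 CPM of Ly6c1.

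**Figure D4:**
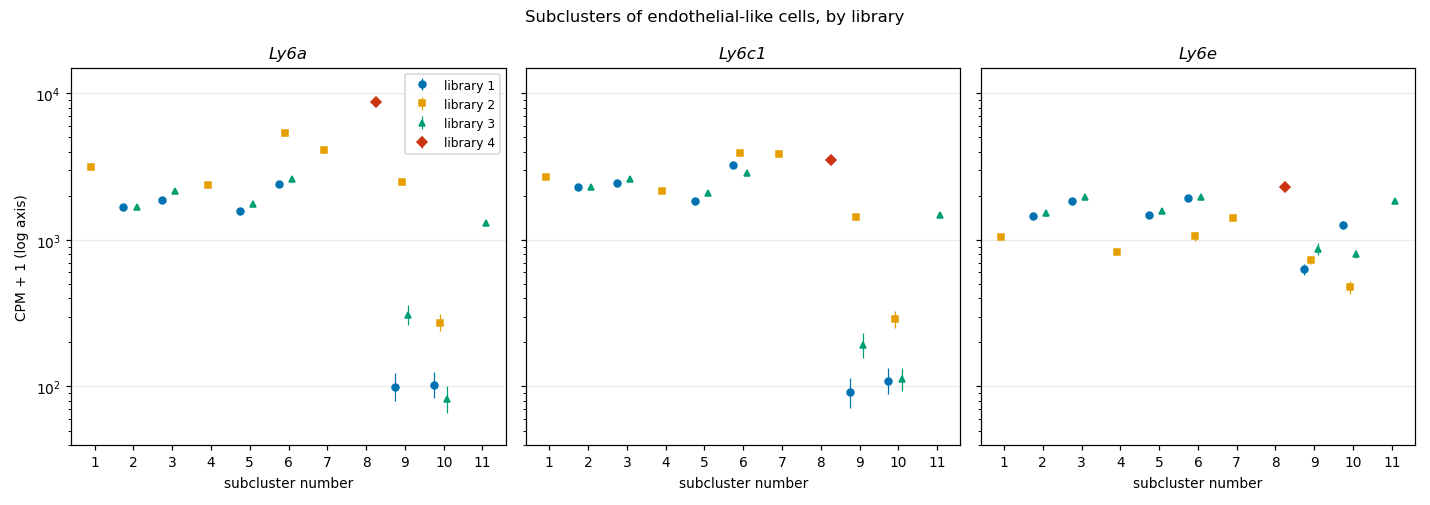
CPM plus 1 (log axis) of Ly6a, Ly6c1 and Ly6e in endothelial-like subclusters 1 to 11, with 1 point per library of at least 20 cells and bars for the exact Poisson 95% interval. Lymphatic-like subcluster 10 lies lowest for Ly6c1 together with venous or endocardial-like subcluster 9 of libraries 1 and 3, and subcluster 8 of library 4 is the highest for Ly6a at 8718 CPM pooled.

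Ubd encodes a ubiquitin-like modifier, and the study named Ly6a among the genes found with it. In thinned endothelial-like cells of library 4, Ly6a measured 8171 CPM in the 269 cells with a Ubd UMI and 7918 CPM in the 367 cells without, and the intervals overlapped (7833 to 8520 and 7633 to 8212). Ly6c1 measured 3175 and 3422 CPM, with overlapping intervals too, and Ly6e 1929 and 2311 CPM, lower in the cells with Ubd. Within library 4, a Ubd UMI therefore did not sort endothelial-like cells by Ly6a at this depth. Of the 637 endothelial-like cells of library 4, 617 were in Ubd-led subcluster 8, so the split had few other cells to compare. Over all libraries, Ubd measured 1729 CPM in subcluster 8, the highest for Ly6a, and 61.9 CPM or less in each other subcluster. The study drew its Ubd network over endothelial cells rather than within 1 library, a wider comparison than this split. By Cxcl9, an interferon-induced chemokine, Ly6a was 1944 with and 1659 CPM without in library 1, 3506 and 3198 in library 2, 2046 and 2003 in library 3 and 8122 and 6067 in library 4, where only 30 cells lacked it. The intervals were apart in libraries 1 and 4. In library 4, Ly6c1 (3396 with and 1733 CPM without) and Ly6e (2185 and 1433 CPM) were also higher with Cxcl9, with intervals apart. The gap of library 4 was thus not particular to Ly6a. In library 1 the intervals of Ly6c1 and of Ly6e overlapped.

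Macrophage-like and dendritic-like cells gave 16 subclusters, and Ly6c2 followed the monocyte to macrophage axis among them. Infiltrating monocyte-like subcluster 4 of library 4 held 2958 CPM of Ly6c2, 1691 of Ly6i, 3712 of Ly6a and 2483 of Ly6e. Resident macrophage-like subcluster 3 of libraries 1 and 3 held 6.63 CPM of Ly6c2, 2.17 of Ly6i, 85.4 of Ly6a and 696 of Ly6e. Resident macrophage-like subcluster 10 of library 2 held 2 Ly6c2 UMIs, or 0.985 CPM, and 71.4 CPM of Ly6a. Both resident subclusters thus had almost no Ly6c2 or Ly6i. For Ly6i, subset and library cannot be told apart here, since subclusters 3 and 10 had 1 and 0 cells of library 4. Infiltrating monocyte-like subcluster 6 of library 2, given below, also had little Ly6i.

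The subclusters named infiltrating monocyte-like were not alike. The name of subcluster 6 rested on 3 of 5 markers. It held 271 CPM of Plac8, a monocyte gene, against 8714 CPM in subcluster 4 and 3151 and 4702 CPM in unnamed subclusters 1 and 2. Its low Ly6c2 and Ly6i therefore need not be a trait of infiltrating monocytes. Subcluster 6, with 724 of 745 cells from library 2 and Arg1 at 6396 CPM, held 148 CPM of Ly6c2, 2.39 of Ly6i, 59.7 of Ly6a and 243 of Ly6e. Of the unnamed subclusters of library 4, subcluster 1 with 2536 cells held 928 CPM of Ly6c2 and 1542 of Ly6i, subcluster 2, led by Nos2, 1333 and 2243, and subcluster 7, with C1qa at 6355 CPM, 217 and 222. Ly6a stood at 4478, 3933 and 4427 CPM in these 3. Over all subclusters of library 4, Ly6a ran from 442 CPM in subcluster 16 to 6869 CPM in subcluster 11.

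**Figure D5:**
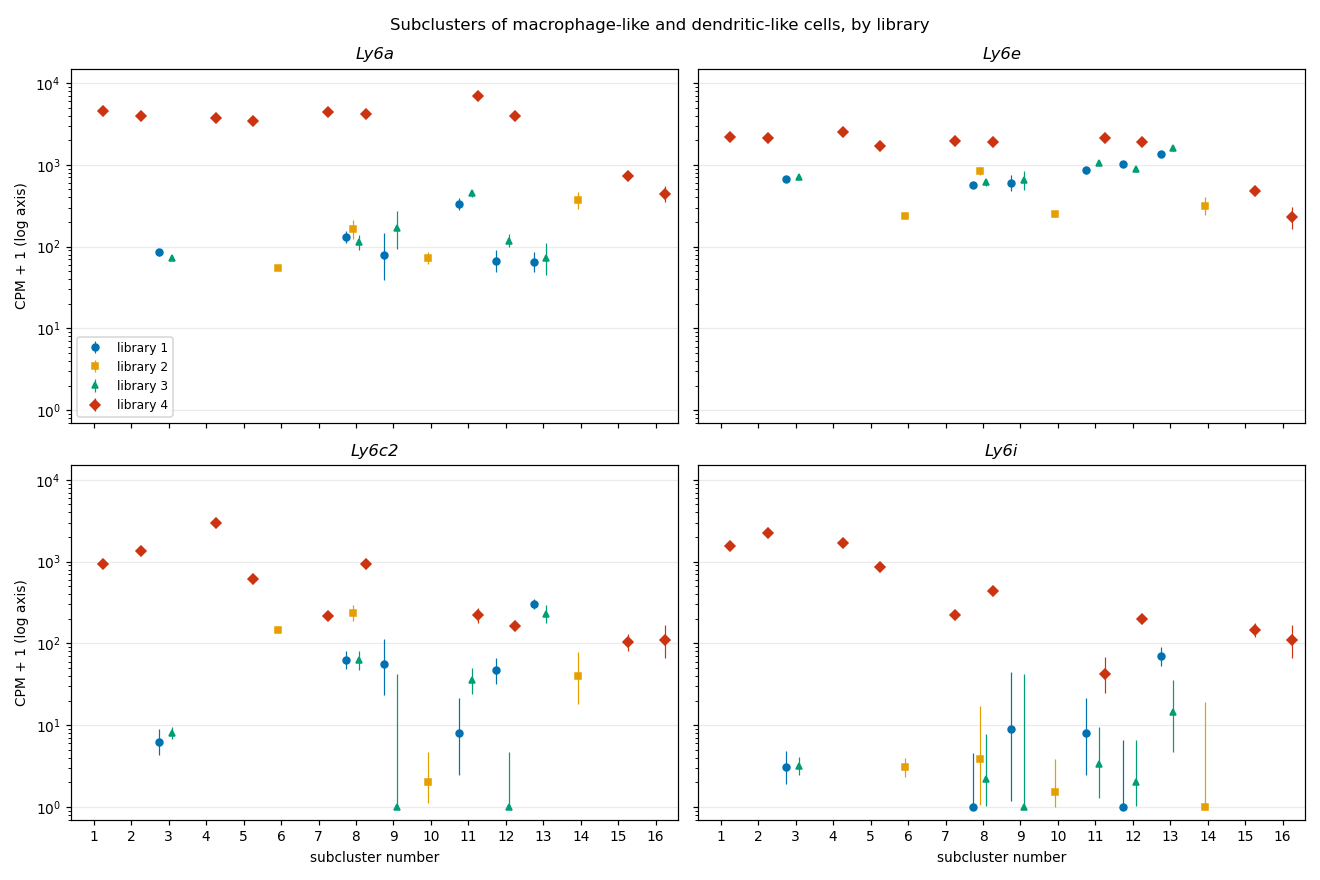
CPM plus 1 (log axis) of Ly6a, Ly6e, Ly6c2 and Ly6i in subclusters 1 to 16 of macrophage-like and dendritic-like cells, with 1 point per library of at least 20 cells and bars for the exact Poisson 95% interval. Most points of library 4 lie above the others for Ly6a and Ly6i, but subclusters 15 and 16 of library 4 stand at 737 and 442 CPM of Ly6a and subcluster 11 at 41.2 CPM of Ly6i, and Ly6c2 falls from 2958 CPM in infiltrating monocyte-like subcluster 4 to 1.02 CPM in library 2 of resident macrophage-like subcluster 10.

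Nonclassical monocyte-like subcluster 13 held 304 and 231 CPM of Ly6c2 in libraries 1 and 3, 64.7 and 71.3 of Ly6a and 1364 and 1602 of Ly6e. Dendritic-like subcluster 8 held 62.2, 236, 61.5 and 933 CPM of Ly6c2 and 131, 164, 112 and 4220 CPM of Ly6a in libraries 1 to 4, and it held Ly6d in each of them at 40.5, 264, 70.0 and 138 CPM. Dendritic-like subcluster 15, whose leading genes include Ccr7, held 77.1 CPM of Ly6c2, 111 of Ly6i and 564 of Ly6a. Most of the dendritic-like class of library 4 fell in unnamed subcluster 5, whose cells had a median of 973 UMIs and were led by T cell genes and the muscle actin Acta1, so the values of the whole dendritic-like class in library 4 include many such shallow cells.

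Single cells were also split by markers of this axis. Thinned macrophage-like cells with a UMI of Plac8, a monocyte gene, held 184 CPM of Ly6c2 against 2.35 without in library 1. The values were 252 against 80.7 in library 2, 250 against 8.42 in library 3 and 1504 against 576 in library 4. Libraries 1 and 3 had 76 and 52 cells with Plac8. Nonclassical monocyte-like subcluster 13, with Plac8 at 3472 CPM, had 70 and 32 cells in these libraries. The cells with Plac8 there need not be classical monocytes. Cells with a UMI of C1qa, a complement gene of mature macrophages, held 5.33 CPM of Ly6c2 against 103 without in library 1, 54.7 against 117 in library 2, 5.13 against 116 in library 3 and 882 against 1795 in library 4. Ly6c2 was thus higher with Plac8 and lower with C1qa in all 4 libraries, and the intervals were apart in each. Ly6i in library 4 followed, at 1776 with and 869 without Plac8 and 1297 with and 1956 without C1qa. Of the thinned macrophage-like cells of library 4, 37.7% held Ly6c2 and Ly6i together, 14.4% Ly6c2 alone, 30.1% Ly6i alone and 17.7% neither. These shares depend on the depth of 1000 UMIs and do not define separate cells. At full depth, Ly6i and Ly6c2 UMIs were in 96.7 and 92.9% of cells of cluster 3 and in 90.3 and 82.7% of cluster 6.

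T/NK-like cells gave 9 subclusters, most from 1 library. Subcluster 1, with 504 of 516 cells from library 4 and led by genes such as Cd4 and Tnfrsf4, held 2298 CPM of Ly6a and 919 of Ly6c2 in that library. It stayed unnamed, and its cells held Cd8a at 302 CPM beside Cd4 at 132 CPM. Cycling subcluster 2 and NK-like subcluster 3 held, in their cells of library 4, 1325 and 969 CPM of Ly6a and 312 and 227 of Ly6c2. Subcluster 6 held 624 and 928 CPM of Ly6c2 in libraries 1 and 3 and 273 and 503 of Ly6a, above NK-like subcluster 7 of these libraries, with 139 and 48.2 CPM of Ly6c2 and 47.8 and 33.4 of Ly6a. Gamma-delta T-like subcluster 9 of library 4 held 2819 CPM of Ly6a and 87.0 of Ly6c2 in 31 cells. Subcluster 5 was led by endothelial and granulocyte genes such as Fabp4 and S100a8. Its 158 cells of library 2, most of the 164 T/NK-like cells of that library, held 322 CPM of Ly6c1 beside 9.92 CPM of Ly6c2.

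The genes whose log2 level was most alike over the 44 units differed by member. Ly6a was followed by Wars (r = 0.839), Gbp4 (0.801), Gbp3, Gbp2 and Xaf1, and Ly6e by H2-K1 (0.906), Sp100 (0.889), Sp110, B2m and H2-M3. Ly6c1 was followed by Ecscr (0.947), Tshz2 (0.894), Cyyr1, Adcy4 and Robo4, and Ly6c2 by Oas3 (0.873), Itgb2 (0.871), Ccdc88b, Pycard and Lcp2. Ly6i was followed by Gm15056 (0.949), Il27 (0.928), Cfb, Prm1 and Fam26f, and Ly6d by Spib (0.972), Bcl11a (0.951), Iglc3, Fcrla and Haao. Among the members themselves, Ly6c2 and Ly6i were the most alike at 0.701, Ly6a and Ly6e reached 0.646 and Ly6a and Ly6c1 0.602, while Ly6c1 and Ly6c2 stood at -0.388. The units share libraries and classes, so these values are descriptions.

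Other genes with the same protein fold were mostly low. Of 35 listed Ly6 and related genes, 32 were in the matrix, 11 had at least 100 UMIs, 18 had 1 to 99 and 3 had 0. Gpihbp1, which carries lipoprotein lipase across capillary endothelium, led in endothelial-like cells at 1584 CPM, and Plaur, the urokinase receptor, in granulocyte-like cells at 842 CPM. Ly6g, the neutrophil antigen known as part of Gr-1, led in granulocyte-like cells at 88.2 CPM. Of the remaining 8, Ly6g6c and Ly6g6d led in endothelial-like, Ly6k and Lypd1 in fibroblast-like, Lynx1 and Cd59b in cardiomyocyte-like, Cd59a in Schwann-like and Ly6g5b in T/NK-like cells, at 85.8 CPM or less. Ly6g6c, Ly6g6d and Ly6g5b led at only 1.85, 3.17 and 2.56 CPM, against 1.74, 3.02 and 2.14 CPM in the next class. Their leading class is therefore uncertain.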

How the data were processed

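The study profiled 4 heart grafts with the 10x Chromium platform. The authors aligned reads with Cell Ranger on mm10 and deposited raw UMI counts per gene and cell as 1 merged matrix, without normalization; the submitters' processing notes also name CASAVA 1.8 and Seurat. The members and all lists were chosen with earlier results of these data known. All 6 members were named, with the other Ly6 genes of at least 100 UMIs and, for each member, the 5 genes of highest correlation.

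Cells needed over 200 genes and under 20% mitochondrial UMIs, and the 5% of each library most like simulated doublets were removed. After scaling each cell to 10000 UMIs, 2000 variable genes without Ly6 family genes were reduced to 10 principal components and clustered with the Leiden method on a graph of 30 neighbours at a resolution of 0.8 (0.5 for subclusters, also without interferon and MHC class II genes). A class name needed at least 3 markers detected in at least 10% of cells and 2-fold above the average elsewhere, after adding 10 CPM. Not every cluster that reached this was named. Cluster 10 with 8 of 8 endothelial markers and cluster 19 with 7 of 8 granulocyte markers stayed unnamed. Levels are UMIs per 1000000 UMIs (CPM) with exact Poisson 95% intervals, and shares are given after random thinning to 1000 UMIs, which left out 3972 shallower cells. Genes with at least 100 UMIs were counted between libraries and classes, with 1 CPM added. Likeness is the Pearson correlation of log2 of CPM plus 10 over units of at least 20 cells, among genes with at least 500 UMIs. The steps were tested on simulated data. Coding sequences came from GENCODE M21 transcripts, and 2 of 6 members had an entry in the RefSeq promoter table. Python 3.11.15, numpy 2.4.6, scipy 1.17.1, pandas 2.3.3, scikit-learn 1.9.0, igraph 0.11.9, leidenalg 0.10.2, Biopython 1.88 and matplotlib 3.10.9 were used.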

Additional observations from a re-analysis of the deposited data

How the results depend on the processing

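No paired analysis was possible because no text pairs a barcode suffix with a graft. Values in CPM are compared with the Poisson interval of the reported level, which is narrow, so small shifts pass it. In endothelial-like cells Ly6c1 (2465) became 2430 at a clustering resolution of 0.4, 2498 at 1.6, 2477 with doublets kept, 2525 with at least 500 genes per cell, 2580 with Ly6 genes allowed in clustering and 2614 as the mean of the libraries. Ly6a (2797) became 2318, 2814, 3115, 2899 and 3780 under the same settings other than doublets, and Ly6e (1480) 1423, 1513, 1513, 1465, 1532 and 1623 under all 6. In macrophage-like cells Ly6c2 (892) became 904 at 1.6, 873 with doublets and 355 as the mean of the libraries, and Ly6i (1071) 1087, 1053 and 382. Ly6c2 in T/NK-like cells (390) became 439 with doublets and 267 as the mean of the libraries, and Ly6d in B-like cells (1327) 1230 and 1202. Leaving out 1 library gave 2329 to 2618 for Ly6c1, 2305 to 3300 for Ly6a and 1360 to 1701 for Ly6e in endothelial-like cells, 63.9 to 1017 for Ly6c2 and 3.53 to 1223 for Ly6i in macrophage-like cells, 244 to 402 for Ly6c2 in T/NK-like cells and 1190 to 1421 for Ly6d in B-like cells. The lowest value of Ly6c2 in both classes and of Ly6i came without library 4, and these 3 were the only leave-outs that moved a level by over 1.5 times. The mean of the libraries gives the 5905 macrophage-like cells of library 4 the weight of 1 library in 4; the cause of the other shifts was not tested. The classes changed too, with 12 named in the main run, 8 at a resolution of 0.4 and 11 at 1.6. With doublets kept 11 were named, and 10 each with at least 500 genes per cell and with Ly6 genes allowed. The endothelial-like class held 9080 to 14090 cells over these settings, and the order of classes was not compared between them. Depth limits Ly6d outside B-like cells, where few cells set each level.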
